A study of Mus musculus with 25 samples.

Results

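The genes described here are the heat shock and unfolded protein response genes of the mouse hippocampus. The set was named by 40 gene symbols, and a symbol was kept where it reached at least 1 CPM (a count scaled to library size) in at least 3 libraries. That left 39 genes of the 24421 symbols counted, of which 15123 pass the same CPM rule. By place of work, 16 are chaperones of the cytosol, 3 of the mitochondrion, 2 are heat shock factors and 18 belong to the endoplasmic reticulum (ER). Trib3, a pseudokinase induced by Atf4, was the 1 named symbol that did not pass: it had 0 to 18 counts per library and at most 0.877 CPM. Just inside the rule, Hspb1 reached 1 CPM in 7 libraries, 3 of them from mice with seizures, and Hspa1a and Hspa1b in 22 each.

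The study measured gene expression by RNA sequencing in whole hippocampus of Scn1a+/- mice, which lack 1 working copy of the sodium channel gene Scn1a and serve as a model of Dravet syndrome, with wild-type mice beside them. The title of the series sets strains that resist seizures against strains that are susceptible to them. Animals came from the inbred strain 129S6/SvEvTac (129S6) or were [129S6/SvEvTac x C57BL/6]F1 hybrids (F1), and no drug or other treatment is labelled. Each of the 25 libraries was made from pooled hippocampi.

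At postnatal day 24 (P24) the F1 animals gave 3 libraries of Scn1a+/- mice labelled with seizures, 2 of Scn1a+/- mice labelled as having none (seizure-free) and 3 of wild type, also seizure-free, as are all the groups that follow. At P24 the 129S6 animals gave 3 libraries labelled Scn1a+/- and 3 labelled wild type. At postnatal day 14 (P14) there were 3 Scn1a+/- and 3 wild-type F1 libraries, and 3 Scn1a+/- and 2 wild-type 129S6 libraries. The seizure pools held 3 to 4 mice and the other pools 12 to 16, so pool size and seizure state cannot be told apart. No label says that pools of 1 group came from different litters, and p-values here cover only the differences from pool to pool. In bulk tissue, fewer cells of a type and less RNA per cell cannot be told apart either.

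Chaperones bind unfolded proteins and help them to fold, to be held soluble or to be degraded. In the cytosol, heat shock factor 1 switches on small heat shock proteins, Hsp70, Hsp110 and J proteins when unfolded proteins build up. In the ER, the sensors Ire1, Perk and Atf6 act through Xbp1, Atf4 and cleaved Atf6 to raise the chaperone BiP (Hspa5) and its partners, a program called the unfolded protein response, and Perk signalling also leads to Ddit3 and Chac1. Neurons and glia both use these programs, and prolonged firing and injury are known to engage them.

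Total counts ran from 7436442 to 25520050 per library. Scn1a stood at 104 ± 16.0 CPM (SD, n = 2) in seizure-free Scn1a+/- and at 127 ± 2.79 CPM (SD, n = 3) in wild type at P24 in F1. In the P24 129S6 libraries Scn1a ran against the labels, with 140 ± 4.95 CPM (SD, n = 3) in those labelled Scn1a+/- and 110 ± 0.740 CPM (SD, n = 3) in those labelled wild type, and the file names give the opposite genotype. Those libraries keep their labels here, and by the file names every sign of that 1 comparison reverses. The seizure libraries differed more from each other than those of any other group, with chi-square per degree of freedom of 18.3, 30.7 and 40.2 for their pairs, 8.59 for the seizure-free P24 F1 pair and at most 7.37 elsewhere. The fit gives each gene 1 spread for all 9 groups. Standard errors and p-values of the seizure comparisons can therefore understate the spread among the seizure pools. All 5 hippocampal neuron markers examined, such as Prox1 (87.2 to 125 CPM), were above 1 CPM in every library, and 4 of 5 blood genes, all haemoglobins, were listed at 0 in every library.

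Per kilobase of exon, the most abundant member in P24 F1 wild type was Hsp90ab1, the constitutive cytosolic Hsp90, at 172 ± 14.8 CPM per kb (SD, n = 3). Calr, the calcium-binding ER chaperone calreticulin, followed at 57.5 ± 3.24, Atf4 at 41.0 ± 0.821, the ER Hsp90 Hsp90b1 at 38.9 ± 2.56, the membrane-bound ER lectin Canx at 37.0 ± 1.90 and Hspa5 at 33.8 ± 3.23 CPM per kb. Atf4 and Hsp90b1, and Hsp90b1 and Canx, differed by no more than the larger SD of each pair. The least abundant were the stress-inducible genes: Chac1 at 1.59 ± 0.205, Hspa1b at 1.07 ± 0.143, Hspb1 at 1.01 ± 0.212 and Hspa1a at 0.649 ± 0.0374 CPM per kb. The exon length used joins all annotated transcripts of a gene, 6113 bases for Hsp90b1 and 2374 bases for Atf4. Their longest coding transcripts have 2937 and 2146 bases, so the order of the members can change with the length used. These levels also do not allow for reads shared between copies. Of the 50-base stretches of their transcripts, 70.1% in Hspa8, 62.3% in Hspa1b, 60.4% in Hspa1a, 47.6% in Hsp90aa1, 45.8% in Hspb1, 33.0% in Hspd1 and 27.9% in Hspe1 also occur in another annotated gene, for Hspa1a and Hspa1b mainly in each other, and 62.8% in Manf occur in the gene model of Rbm15b. The levels and changes of these 8 genes, and of Dnaja1 (18.2%), are therefore uncertain.

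In mice with seizures, part of the cytosolic chaperones and part of the ER program were higher, and other members of both were not called. Of the abundant members above, Calr, Atf4 and Hspa5 were called higher in both comparisons below, and Hsp90ab1, Hsp90b1 and Canx in neither. Against seizure-free Scn1a+/- mice of the same age and strain, 13 of 39 members rose and 0 fell, by edgeR's quasi-likelihood test at a Benjamini-Hochberg adjusted p under 0.05, and none of the 21 members with an unadjusted p under 0.05 had a negative change. DESeq2 also called 13 higher and 0 lower. Of all 15912 genes tested, 8.72% rose and 7% fell in this comparison, and 4395 had an unadjusted p under 0.05. Against wild type, 15 members rose and 1 fell, and 12.4% of all genes rose and 10.1% fell. The median log2 fold change of the members was 0.22 against seizure-free mice and 0.14 against wild type, and that of all genes tested was 0.01 in both. Both comparisons use the same 3 seizure libraries, so they are not separate evidence.

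**Figure D1:**
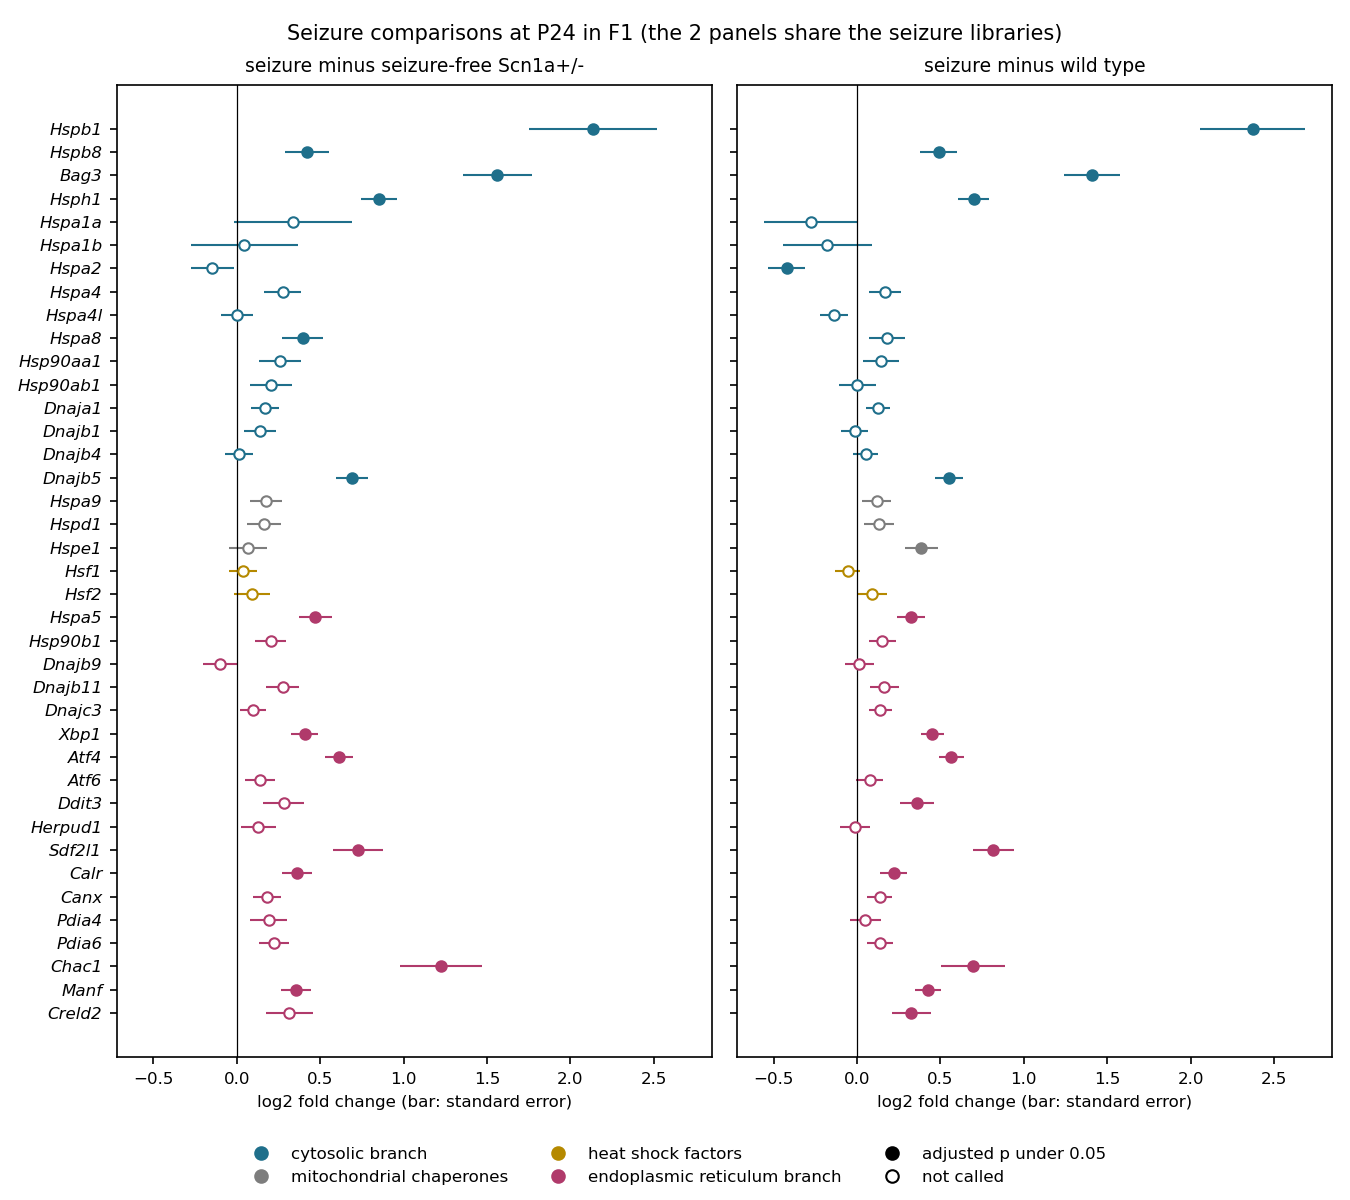
Log2 fold change of each of the 39 members at P24 in F1, seizure minus seizure-free Scn1a+/- (left) and seizure minus wild type (right), with bars for the standard error and filled points for an adjusted p under 0.05. Hspb1 lies farthest to the right in both panels, at 2.14 and 2.37. Hsf1 and Hsf2 have open points near 0, and Hsp90aa1 and Hsp90ab1 open points at 0.20 to 0.26 (left) and 0.00 to 0.14 (right).

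The small heat shock proteins Hspb1 and Hspb8 and their partner Bag3, 3 of 3, rose in both comparisons. Hspb1 encodes Hsp27, a small chaperone that holds unfolded proteins and is known in reactive astrocytes. It stood at 6.34, 4.68 and 5.46 CPM in the seizure libraries, at 1.65 and 0.944 CPM in the seizure-free Scn1a+/- libraries and at 0.890, 1.30 and 0.962 CPM in wild type. The lowest seizure library lay above every one of the other 22 libraries of the series, which ran from 0.204 to 1.65 CPM. The log2 fold change was 2.14 ± 0.38 (SE) against seizure-free mice (edgeR quasi-likelihood adjusted p = 0.000119) and 2.37 ± 0.31 against wild type (edgeR adjusted p = 6.54e-07). Its counts were low, 92 to 141 reads per seizure library and 17 to 31 in the other P24 F1 libraries.

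Bag3 is the co-chaperone that joins Hsp70 to small heat shock proteins and steers bound proteins to autophagy. Its seizure libraries held 12.8, 25.0 and 23.4 CPM, the seizure-free libraries 6.41 and 7.27 CPM and the wild-type libraries 8.15, 7.62 and 7.19 CPM. The seizure libraries lay above both other groups, and seizure replicate 1 was well below the other seizure libraries. On the log2 scale Bag3 rose by 1.56 ± 0.21 against seizure-free mice (edgeR adjusted p = 1.17e-06) and 1.41 ± 0.17 against wild type (edgeR adjusted p = 1.08e-07). Hspb8, the small heat shock protein that binds Bag3, averaged 20.8 ± 3.35 CPM (SD, n = 3) with seizures, 15.5 ± 1.47 (n = 2) without and 14.8 ± 0.930 (n = 3) in wild type. Its log2 fold change was 0.42 ± 0.13 against seizure-free mice (edgeR adjusted p = 0.0268) and 0.49 ± 0.11 against wild type (edgeR adjusted p = 0.00158). The first of these calls was lost without seizure replicate 1 (0.28), seizure-free replicate 1 (0.31) or seizure-free replicate 2 (0.52).

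Among the Hsp70 and Hsp110 genes, 2 of 7 rose against seizure-free mice, and 1 rose and 1 fell against wild type. Hsph1 encodes Hsp110, which exchanges the nucleotide of Hsp70 and takes part in undoing protein clumps. Its level was 312, 311 and 430 CPM with seizures, 220 and 169 CPM in seizure-free Scn1a+/- and 232, 208 and 209 CPM in wild type, with every seizure library above both other groups. Hsph1 rose by 0.85 ± 0.11 (edgeR adjusted p = 5.86e-07) against seizure-free mice and 0.70 ± 0.09 (edgeR adjusted p = 9.8e-07) against wild type on the log2 scale. Hspa8, the constitutive Hsc70, rose against seizure-free mice by 0.40 ± 0.12 on the log2 scale (edgeR adjusted p = 0.0247), with overlapping libraries of 53.2 to 82.9 against 48.0 and 60.8 CPM. That call was lost without seizure replicate 1 (0.32), seizure replicate 3 (0.26) or seizure-free replicate 2 (0.22), and against wild type Hspa8 was not called (0.18 ± 0.11).

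Hspa2, an Hsp70 best known from sperm cells and also made in the brain, fell by 0.42 on the log2 scale against wild type (SE 0.11, edgeR adjusted p = 0.00486), from 47.2 ± 6.30 to 35.2 ± 8.03 CPM (SD, n = 3 each). This call was lost without seizure replicate 2 (-0.27) or wild-type replicate 1 (-0.32). The classical heat-inducible Hsp70 genes Hspa1a and Hspa1b were not called in either comparison. Hspa1a was at 1.30, 1.02 and 2.44 CPM with seizures, at 1.30 and 1.22 CPM without and at 2.05, 1.89 and 1.83 CPM in wild type. Its highest and its lowest P24 F1 library were both seizure libraries. Its log2 change was 0.34 ± 0.36 against seizure-free mice and -0.28 ± 0.28 against wild type, on 15 to 50 reads per library. Hspa4 (0.28 ± 0.11 and 0.17 ± 0.10), another Hsp110, was not called either.

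Of the 4 J proteins, which bring substrates to Hsp70, Dnajb5 rose in both comparisons. It was at 158, 200 and 230 CPM with seizures, at 128 and 115 CPM without, and at 131, 131 and 140 CPM in wild type. No seizure library overlapped with either P24 F1 group, and the log2 fold change was 0.69 ± 0.10 (edgeR adjusted p = 2.72e-06) and 0.55 ± 0.08 (edgeR adjusted p = 7.12e-06). Dnajb1, the J protein most often used as a readout of heat shock factor activity, was at 42.8 ± 5.09 CPM (SD, n = 3) with seizures, 38.9 ± 3.00 (n = 2) without and 43.2 ± 4.43 (n = 3) in wild type, and was not called. The cytosolic Hsp90 genes also did not pass: Hsp90aa1 had log2 changes of 0.26 ± 0.12 and 0.14 ± 0.11, and Hsp90ab1 of 0.20 ± 0.12 and 0.00 ± 0.11. Hsp90ab1 ranged from 667 to 1181 CPM across the seizure libraries, wider than the 881 to 1020 CPM of wild type. Neither heat shock factor was called, with Hsf1 at 0.04 ± 0.09 and -0.06 ± 0.07 and Hsf2 at 0.09 ± 0.11 and 0.09 ± 0.09.

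**Figure D2:**
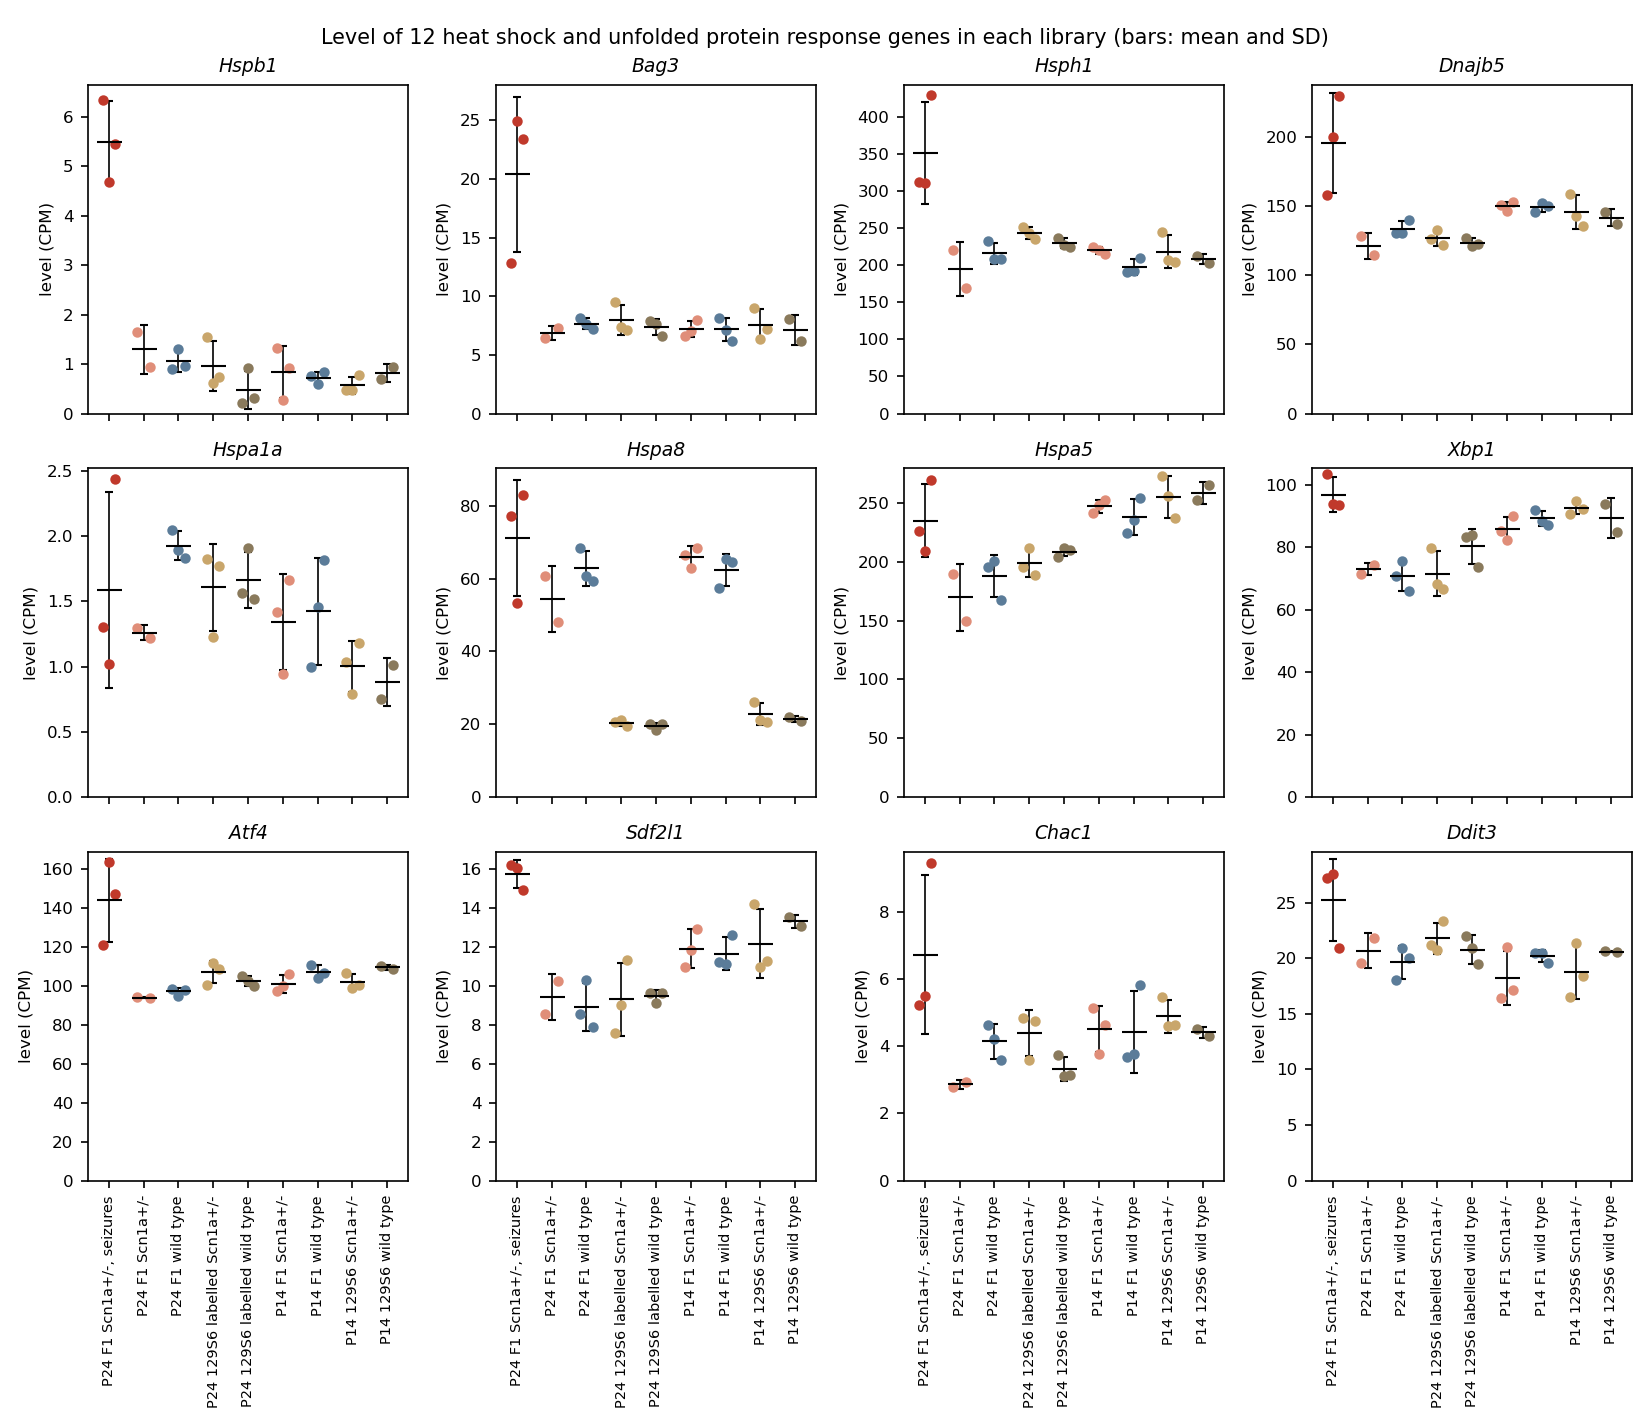
Level of 12 members in CPM in each library of the 9 groups, with a horizontal bar for the group mean and a vertical bar for the SD. The seizure libraries (far left) lie above all others for Hspb1, Bag3, Hsph1, Atf4 and Sdf2l1, the seizure libraries of Bag3 spread from 12.8 to 25.0 CPM, and Hspa8 is low in every 129S6 library.

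The promoters of the cytosolic members that rose or that did not can be set side by side. Heat shock factors bind inverted repeats of a short unit, the heat shock element, whose core was searched as GAANNTTC or TTCNNGAA, forms that are each their own reverse complement, so both strands are covered. The windows came from RefSeq on GRCm38.p6 and run from 250 bases before to 50 bases after each gene start, and 33 of the 40 symbols matched one. The core was found in 8 of 13 cytosolic members with a window, in 0 of 16 ER members and in 15.1% of all 32851 windows. Below are stretches of 4 of these, in the direction of the gene, with the core in capitals, chosen because Hspb1 and Hsph1 rose with seizures and the pair Hspa1a and Hspa1b did not.
Hspb1: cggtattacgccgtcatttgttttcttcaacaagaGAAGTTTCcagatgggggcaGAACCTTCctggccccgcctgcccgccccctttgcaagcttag
Hsph1: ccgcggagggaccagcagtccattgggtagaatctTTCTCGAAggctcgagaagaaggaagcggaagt
Hspa1a: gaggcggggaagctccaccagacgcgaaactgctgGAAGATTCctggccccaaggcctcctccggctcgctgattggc
Hspa1b: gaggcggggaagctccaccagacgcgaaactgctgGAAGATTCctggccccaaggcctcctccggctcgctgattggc
The Hspb1 stretch is chr5:135887767-135887864 on the plus strand, the Hsph1 stretch chr5:149636337-149636404 on the minus strand, the Hspa1a stretch chr17:34972218-34972295 and the Hspa1b stretch chr17:34959300-34959377, both on the minus strand. Hspb1 holds 2 cores, which begin 117 and 97 bases before its start. The stretches stop at the gene start, and the Hsph1 window holds further cores after it, at 37 and 42 bases. The stretches of Hspa1a and Hspa1b are identical in 78 of 78 bases. A longer form with 3 units was in 0.603% of all windows and in those of Hspd1, Hspe1 and Hsph1. Dnajb5, which rose in both comparisons, held no core in its window, and Hspa8, Hsp90aa1 and Hsp90ab1 had no window. Cores were thus present both in members that rose and in members that were not called, and absent from a member that rose.

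Of the 3 mitochondrial chaperones, 0 rose against seizure-free mice and 1 against wild type. Hspe1 and Hspd1 encode the 2 parts of the mitochondrial folding chamber, Hsp10 and Hsp60, and share a promoter region between their divergent starts. Hspe1 rose against wild type by 0.38 ± 0.10 on the log2 scale (edgeR adjusted p = 0.00457), from 24.4 ± 0.620 to 31.8 ± 6.76 CPM (SD, n = 3 each), with overlap. Without seizure replicate 1 the change was 0.23 and not called, and against seizure-free mice it was 0.07 ± 0.11. Hspd1 (0.16 ± 0.10 and 0.13 ± 0.09) and the mitochondrial Hsp70 Hspa9 (0.17 ± 0.10 and 0.12 ± 0.09) were not called.

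In the ER branch, 7 of 18 members rose against seizure-free mice and 9 of 18 against wild type, and 0 fell in either. Of the 5 response factors and targets, 3 rose against seizure-free mice and 4 against wild type. Atf4, the transcription factor of the integrated stress response, is controlled largely at translation, so its messenger level is a partial readout. It was at 121, 164 and 147 CPM with seizures, at 94.2 and 93.8 CPM in seizure-free Scn1a+/- and at 98.7, 95.0 and 98.0 CPM in wild type. The seizure libraries also lay above all 22 others, whose highest was 112 CPM. The log2 fold change was 0.61 ± 0.08 (edgeR adjusted p = 2.09e-06) and 0.57 ± 0.07 (edgeR adjusted p = 4.48e-07).

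Xbp1, the factor activated by Ire1 through splicing of its messenger, was at 103, 93.9 and 93.5 CPM with seizures, at 71.6 and 74.5 CPM without and at 70.7, 75.7 and 66.1 CPM in wild type. The seizure libraries lay above both of these groups, although P14 libraries reached 94.8 CPM. Its log2 fold change was 0.41 ± 0.08 (edgeR adjusted p = 0.000509) and 0.45 ± 0.07 (edgeR adjusted p = 1.21e-05). Gene counts do not separate its spliced from its unspliced form. Chac1, a glutathione-degrading enzyme downstream of Atf4, was at 5.21, 5.49 and 9.45 CPM with seizures, at 2.77 and 2.94 CPM without and at 4.63, 4.21 and 3.57 CPM in wild type. It rose by 1.22 ± 0.25 on the log2 scale against seizure-free mice (edgeR adjusted p = 0.000568) and by 0.70 ± 0.19 against wild type (edgeR adjusted p = 0.00845), and the second call was lost without seizure replicate 3 (0.36) or wild-type replicate 3 (0.59).

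Ddit3, the factor CHOP that is linked to cell death under ER stress, was at 27.2, 27.6 and 20.9 CPM with seizures, at 19.6 and 21.8 CPM without and at 18.0, 20.9 and 20.0 CPM in wild type. Seizure replicate 3 lay at the level of the controls. Ddit3 was called higher against wild type (0.36 ± 0.10, edgeR adjusted p = 0.0103), a call that was lost without seizure replicate 1 (0.29), seizure replicate 2 (0.29) or wild-type replicate 1 (0.29). Against seizure-free mice it was not called (0.28 ± 0.12, edgeR adjusted p = 0.118). Atf6, the membrane-bound sensor and factor, was not called (0.14 ± 0.09 and 0.08 ± 0.08).

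Of the 13 ER chaperones and folding factors, 4 rose against seizure-free mice and 5 against wild type. Sdf2l1, a BiP cofactor strongly tied to the unfolded protein response, was at 16.2, 16.1 and 14.9 CPM with seizures, at 8.57 and 10.3 CPM without and at 8.55, 10.3 and 7.88 CPM in wild type. The seizure libraries lay above both other groups, and the log2 fold change was 0.73 ± 0.15 (edgeR adjusted p = 0.000563) and 0.82 ± 0.12 (edgeR adjusted p = 7.11e-06). Hspa5, the central ER Hsp70 BiP, was at 227, 209 and 269 CPM with seizures, at 190 and 150 CPM without and at 196, 200 and 167 CPM in wild type. It rose by 0.47 ± 0.10 (edgeR adjusted p = 0.00067) and 0.32 ± 0.08 (edgeR adjusted p = 0.00522) on the log2 scale. The first call was lost without seizure-free replicate 2 (0.30) and the second without wild-type replicate 3 (0.24).

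Manf, a small secreted ER protein with protective effects on neurons, was at 65.2, 56.2 and 47.0 CPM with seizures, at 43.0 and 44.8 CPM without and at 40.7, 44.0 and 40.7 CPM in wild type. Its log2 fold change was 0.35 ± 0.09 (edgeR adjusted p = 0.00651) and 0.42 ± 0.08 (edgeR adjusted p = 0.000141), and the call against seizure-free mice was lost without seizure replicate 1 (0.22) or seizure-free replicate 1 (0.31). Calr rose by 0.36 ± 0.09 against seizure-free mice (edgeR adjusted p = 0.00507), a call lost without seizure-free replicate 2 (0.26). Against wild type its change was 0.22 ± 0.08 with overlapping libraries (edgeR adjusted p = 0.0445), and that call was kept in 9 of 30 alternative fits. Creld2, a protein disulphide isomerase-like ER factor, rose against wild type by 0.33 ± 0.12 (edgeR adjusted p = 0.0466), a call kept in 10 of 30 alternative fits, and was not called against seizure-free mice (0.32 ± 0.14). Hsp90b1 (0.20 ± 0.09 and 0.15 ± 0.08), Canx (0.18 ± 0.09 and 0.14 ± 0.08), Pdia4 (0.19 ± 0.11 and 0.05 ± 0.09) and Pdia6 (0.22 ± 0.09 and 0.14 ± 0.08), a chaperone, a lectin and disulphide isomerases of the ER, had positive changes and were not called. Dnajb9, an Ire1-binding J protein and a well-known Xbp1 target, had changes of -0.10 ± 0.10 and 0.01 ± 0.09, and Herpud1, part of the ER degradation machinery, of 0.13 ± 0.10 and -0.01 ± 0.09.

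A second sequence feature was found in part of the ER branch. The ER stress element, bound by Atf6 and Xbp1 together with NF-Y, is CCAAT followed after 9 bases by CCACG, and was searched on both strands. It was in 7 of 16 ER members with a window (Calr, Canx, Creld2, Dnajc3, Hsp90b1, Hspa5 and Pdia6), in 0 of 13 cytosolic members and in 0.119% of all windows. These are 5 of them in the direction of the gene, with the element in capitals, shown to compare Hspa5 and Calr, called higher in both seizure comparisons, with Pdia6 and Dnajc3, called in neither.
Hspa5: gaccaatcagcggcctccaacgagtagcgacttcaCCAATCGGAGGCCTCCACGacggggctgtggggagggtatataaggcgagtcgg
Calr: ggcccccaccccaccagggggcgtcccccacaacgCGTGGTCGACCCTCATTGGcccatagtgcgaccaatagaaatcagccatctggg
Creld2: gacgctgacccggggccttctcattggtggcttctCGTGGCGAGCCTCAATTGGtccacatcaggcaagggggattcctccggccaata
Pdia6: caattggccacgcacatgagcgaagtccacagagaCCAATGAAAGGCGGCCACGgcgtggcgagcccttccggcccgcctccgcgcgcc
Dnajc3: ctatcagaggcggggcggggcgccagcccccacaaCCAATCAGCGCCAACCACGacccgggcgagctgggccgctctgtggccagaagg
They are chr2:34771990-34772078 (Hspa5, plus strand), chr8:84847040-84847128 (Calr, minus), chr15:88819485-88819573 (Creld2, plus), chr12:17266456-17266544 (Pdia6, plus) and chr14:118937792-118937880 (Dnajc3, plus). The amino acid response element core, TGATG and after 1 base AAT, AAA or CAT, was in 4.08% of all windows, in that of Trib3 and in 0 of the 32 members with a window. Neither Atf4, Chac1, Ddit3, Sdf2l1 nor Xbp1 held any of these letters in the window, and a match or its absence says nothing of binding.

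**Figure D3:**
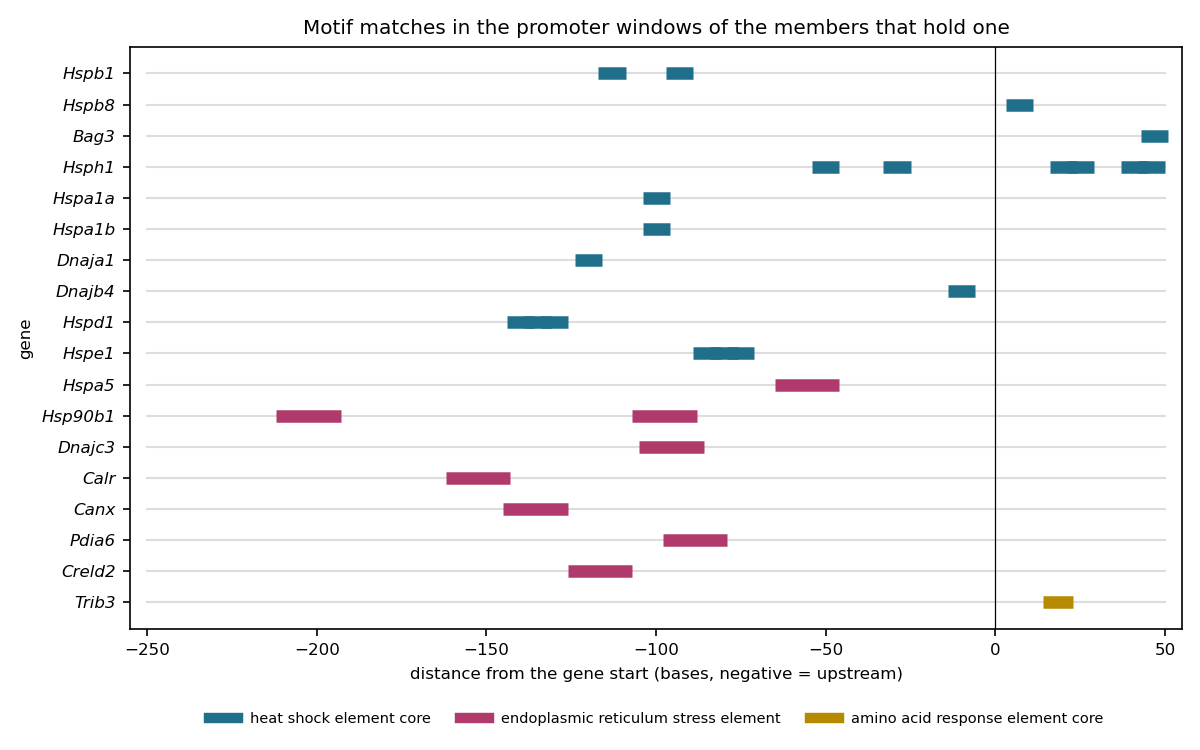
Position of each motif match in the promoter windows of the 18 named genes that hold one, in bases from the gene start. Heat shock element cores occur in cytosolic and mitochondrial members and ER stress elements in ER members.

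Set against each other, the 2 branches had like counts in the seizure comparisons. Against seizure-free mice 6 of 16 cytosolic and 7 of 18 ER members rose, with median log2 changes of 0.27 and 0.28. Against wild type 5 cytosolic members rose, 1 fell and 9 ER members rose, with medians of 0.13 and 0.19. The branches differed in spread: cytosolic members ran from -0.42 to 2.37 against wild type and ER members from -0.01 to 0.82. As the mean of its members' log2 CPM, minus the mean of P24 F1 wild type, the cytosolic branch stood at 0.23, 0.10 and 0.54 in the 3 seizure libraries and the ER branch at 0.25, 0.21 and 0.36. Seizure replicate 3 was the highest for both, and the cytosolic branch varied more between these libraries. The median difference of the members from wild type was 0.08, -0.08 and 0.38 in the cytosolic branch. In the ER branch it was 0.18, 0.12 and 0.32.

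**Figure D4:**
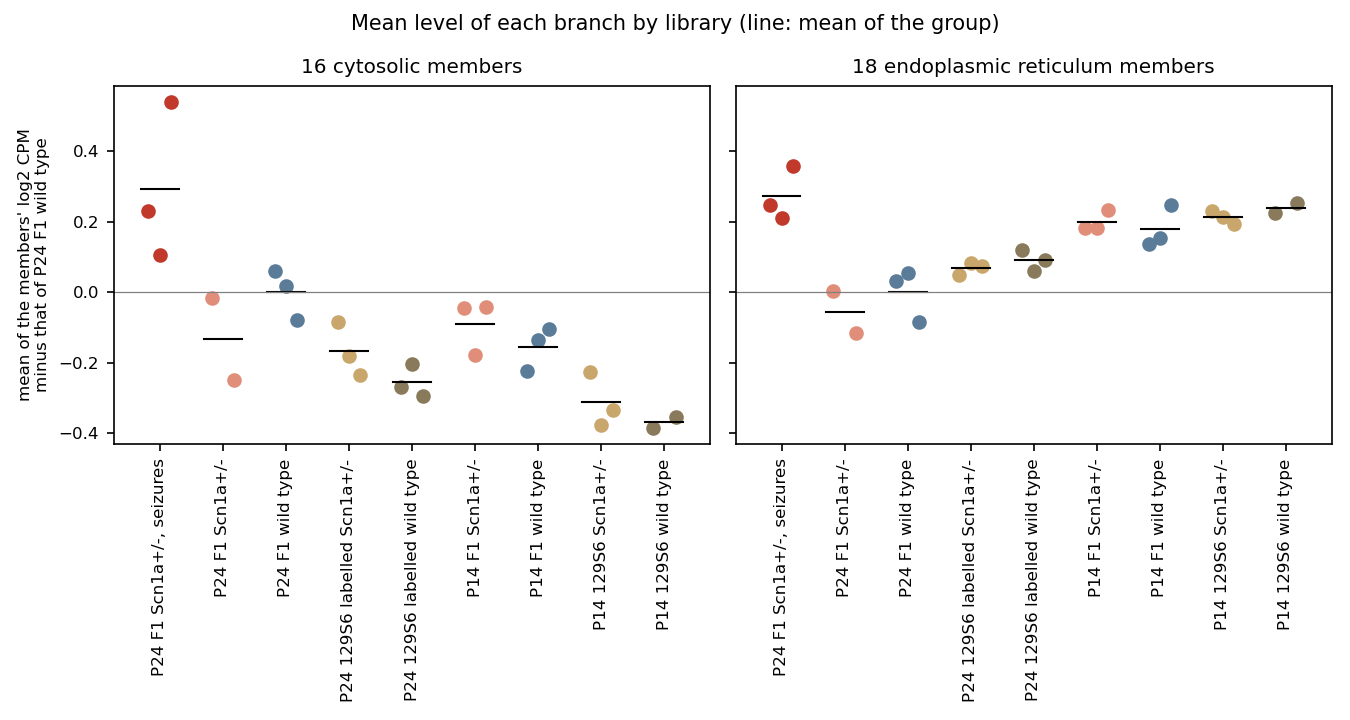
Mean log2 CPM of the 16 cytosolic (left) and 18 ER members (right) in each library, minus the mean of P24 F1 wild type, with a line at each group mean. Seizure replicate 3 is the highest cytosolic point (0.54), and in the ER panel all P14 libraries lie above all seizure-free P24 libraries.

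Single libraries bore on these counts. Of the 39 members, 24 were highest in seizure replicate 3 and 22 lowest in seizure replicate 2 among the seizure libraries. In the seizure-free pair, replicate 1 was above replicate 2 in 30 of 39 members. Replicate 2 lay below all 3 wild-type libraries in 27 members, against 34.8% of all genes, and replicate 1 in 9, against 33.8%. Without seizure replicate 2, 21 members were called against seizure-free mice, 9 cytosolic and 12 ER, and without seizure-free replicate 2, 9 were called, 4 and 5. Without wild-type replicate 3, 5 ER members were called against wild type. A fit of only the groups compared called 7 members (3 ER) against seizure-free mice and 9 (4 ER) against wild type. Kept in all 30 alternative fits were 7 calls against seizure-free mice (Hspb1, Bag3, Hsph1, Dnajb5, Atf4, Sdf2l1 and Chac1) and 9 against wild type (Hspb1, Hspb8, Bag3, Hsph1, Dnajb5, Xbp1, Atf4, Sdf2l1 and Manf).

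Other genes of the same pathways moved in part. Of 39 further cytosolic chaperones and cofactors, 10 rose and 0 fell against seizure-free mice, and 10 rose and 1 fell against wild type. Hspb6, another small heat shock protein, rose by 1.90 ± 0.21 (edgeR adjusted p = 4.6e-08) and 2.06 ± 0.17 (edgeR adjusted p = 7.11e-11) on the log2 scale, to 19.3 CPM with seizures from 5.26 and 4.62 CPM. The Hsp70 cofactor St13 (0.37 ± 0.09 and 0.37 ± 0.08) and the chaperonin subunit Cct3 (0.32 ± 0.08 and 0.23 ± 0.07) were called in both. Of 35 further ER stress genes, 7 rose and 0 fell, and 8 rose and 3 fell. Beside these counts, 8.72% of all genes rose and 7% fell against seizure-free mice, and 12.4% rose and 10.1% fell against wild type. Atf5, a factor downstream of Atf4, rose by 0.64 ± 0.11 and 0.75 ± 0.10, and the ER-bound factor Creb3l1 by 1.17 ± 0.28 and 1.42 ± 0.23. Atf3, an early response and stress factor, averaged 8.98 CPM with seizures, 2.17 CPM without, where the libraries overlapped, and 0.962 CPM in wild type. Against wild type Atf6b (-0.35 ± 0.08), Os9 (-0.26 ± 0.08) and Wfs1 (-0.41 ± 0.14) fell. Of 7 further mitochondrial genes, 0 rose against seizure-free mice and Grpel1 rose against wild type (0.21 ± 0.07).

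Markers of other cell types moved with seizures as well. Of 8 astrocyte markers, 4 rose and 3 fell in each seizure comparison, and their summed level was 7841 to 8959 CPM with seizures, 7137 to 7368 CPM in seizure-free mice and 6307 to 6858 CPM in wild type. Gfap, the intermediate filament of reactive astrocytes, stood at 2356 to 3367 CPM with seizures and 546 to 861 CPM in the other P24 F1 libraries. Gfap is part of the astrocyte sum, which therefore does not describe all 8 markers. Slc1a2 held 3448 to 4326 CPM and Gja1 223 to 233 CPM with seizures, against medians over all libraries of 4916 and 318 CPM. Those medians include both ages, both strains and the seizure libraries, so age and strain enter these differences. Summed endothelial markers were 162 to 190 CPM with seizures against 188 to 201 and 182 to 198 CPM, mural markers 97.7 to 121 against 111 to 113 and 110 to 112 CPM, microglial markers 362 to 443 against 419 to 446 and 380 to 406 CPM, and oligodendrocyte markers 8976 to 14287 against 12891 to 13533 and 12273 to 14136 CPM. Hippocampal neuron markers summed to 448 to 636 CPM with seizures, 521 to 627 CPM in seizure-free mice and 613 to 678 CPM in wild type, and leptomeningeal markers to 95.4 to 117, 112 to 117 and 129 to 141 CPM. The part of these shifts in the changes of Hspb1, Bag3 and the other members was not tested.

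Without seizures, the genotype alone gave no called member in any of 4 comparisons, and the share of all genes called by edgeR was 0 in each (0%). Scn1a itself was thus not called, although at P24 in F1 it stood at 104 CPM in seizure-free Scn1a+/- and 127 CPM in wild type. A genotype difference in the members could be missed as well. At P24 in F1, 3 members had an unadjusted p under 0.05: Hspe1 at 0.32 ± 0.11, Hspa2 at -0.28 ± 0.13 and Chac1 at -0.53 ± 0.26, all with an edgeR adjusted p of 0.833. Hspa2 and Chac1 were lower in both seizure-free libraries than in every wild-type library. Hspa1a (-0.61 ± 0.35) came next in the cytosolic branch and Calr (-0.14 ± 0.09) in the ER branch. At P24 in 129S6, by the labels, Herpud1 (-0.23 ± 0.10) and Xbp1 (-0.17 ± 0.07) had an unadjusted p under 0.05, and the smallest p of the cytosolic branch belonged to Dnajb4 (0.15 ± 0.08) and Dnajb1 (0.15 ± 0.09). By the file names these signs reverse. At P14 in F1, Hspa4l (0.19 ± 0.09), Hsp90aa1 (0.24 ± 0.11) and Dnajb4 (0.17 ± 0.08) had an unadjusted p under 0.05, and in the ER branch Atf6 (0.14 ± 0.09) and Dnajb11 (0.14 ± 0.09) came first. At P14 in 129S6 this was so for Hspa1b alone (0.91 ± 0.43, 1.47 against 0.788 CPM), followed by Dnajb4 (-0.10 ± 0.09), and in the ER branch by Manf (-0.14 ± 0.09) and Atf4 (-0.10 ± 0.08). DESeq2 also called 0 members in each of the 4. Over all 15912 genes tested, 889 at P24 in F1 and 471 at P24 in 129S6 had an unadjusted p under 0.05. At P14 the numbers were 724 in F1 and 391 in 129S6.

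Between strains, Hspa8 and Hspb8 were higher in F1 than in 129S6 at both ages, in libraries that the 2 comparisons do not share. At P14, 2 members rose and 0 fell, against 2.04% and 1.66% of all genes. There 8 of 39 members and 2195 of all 15912 genes had an unadjusted p under 0.05. At P24, 2 members rose and 2 fell, against 3.46% and 2.87% of all genes. Hspa8 ran from 57.3 to 68.5 CPM (median 65.0) in the 6 P14 F1 libraries and from 20.7 to 26.1 CPM (median 21.3) in the 5 P14 129S6 libraries. At P24 it ran from 48.0 to 68.4 CPM (median 60.7) in 5 seizure-free F1 and from 18.4 to 21.1 CPM (median 20.0) in 6 129S6 libraries. The strains did not overlap at either age, and the log2 fold change was 1.55 ± 0.09 at P14 (edgeR adjusted p = 7.14e-14) and 1.55 ± 0.09 at P24 (edgeR adjusted p = 3.48e-14). Since 70.1% of the Hspa8 transcript's 50-base stretches occur in another gene, its value depends on how such reads were counted, which was not tested. Reads of both strains were also aligned to the same genome build. Whether reads of F1 and 129S6 animals align to it equally well was not tested. This limit holds for every strain difference given here, that of Hspb8 included, and a like difference at both ages does not remove it.

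Hspb8, with no shared stretch, ran from 12.1 to 14.5 CPM (median 13.1) in P14 F1 and from 5.46 to 6.07 CPM (median 5.99) in P14 129S6, and from 13.8 to 16.5 CPM (median 14.9) and 6.18 to 8.30 CPM (median 7.08) at P24. It was higher in every F1 library, with log2 fold changes of 1.17 ± 0.11 (edgeR adjusted p = 1.85e-09) and 1.08 ± 0.10 (edgeR adjusted p = 1.22e-09). At P24 Dnajb4 fell by 0.29 on the log2 scale (SE 0.06, edgeR adjusted p = 0.00138), with all F1 libraries (63.6 to 71.4 CPM) below all 129S6 libraries (76.1 to 96.7 CPM). Manf fell by 0.21 (SE 0.06, edgeR adjusted p = 0.0416), a call kept in 14 of 30 alternative fits. No ER member was called at P14, where Manf (-0.17 ± 0.06) and Herpud1 (0.19 ± 0.07) had the smallest p. The P24 count changed with the libraries fitted. Without all 3 seizure libraries, which are in neither group compared but enter the filter, scaling and spread, 12 members were called, 2 higher and 10 lower. The count was 8 without seizure replicate 2, 10 without seizure replicate 3 and 10 without seizure-free replicate 1. The share of all genes called in these fits is not set beside them, so the higher counts are not shown to be particular to the members.

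From P14 to P24 most called ER members fell in both strains, and the cytosolic branch was mixed. In F1, 3 members rose and 15 fell, against 19% and 19.4% of all genes; in 129S6, 7 rose and 11 fell, against 17.3% and 17.1%. Of the 18 ER members, 10 fell and 1 rose in F1, and 8 fell and 2 rose in 129S6. Of the 16 cytosolic members, 3 fell and 1 rose in F1, and 2 fell and 5 rose in 129S6. The median log2 change was -0.27 and -0.17 in the ER branch, -0.00 and 0.07 in the cytosolic branch, and 0.00 and 0.01 over all genes tested. The strains share no libraries here, and 8 of the 10 ER members that fell in F1 and 8 of the 8 in 129S6 were the same genes.

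**Figure D5:**
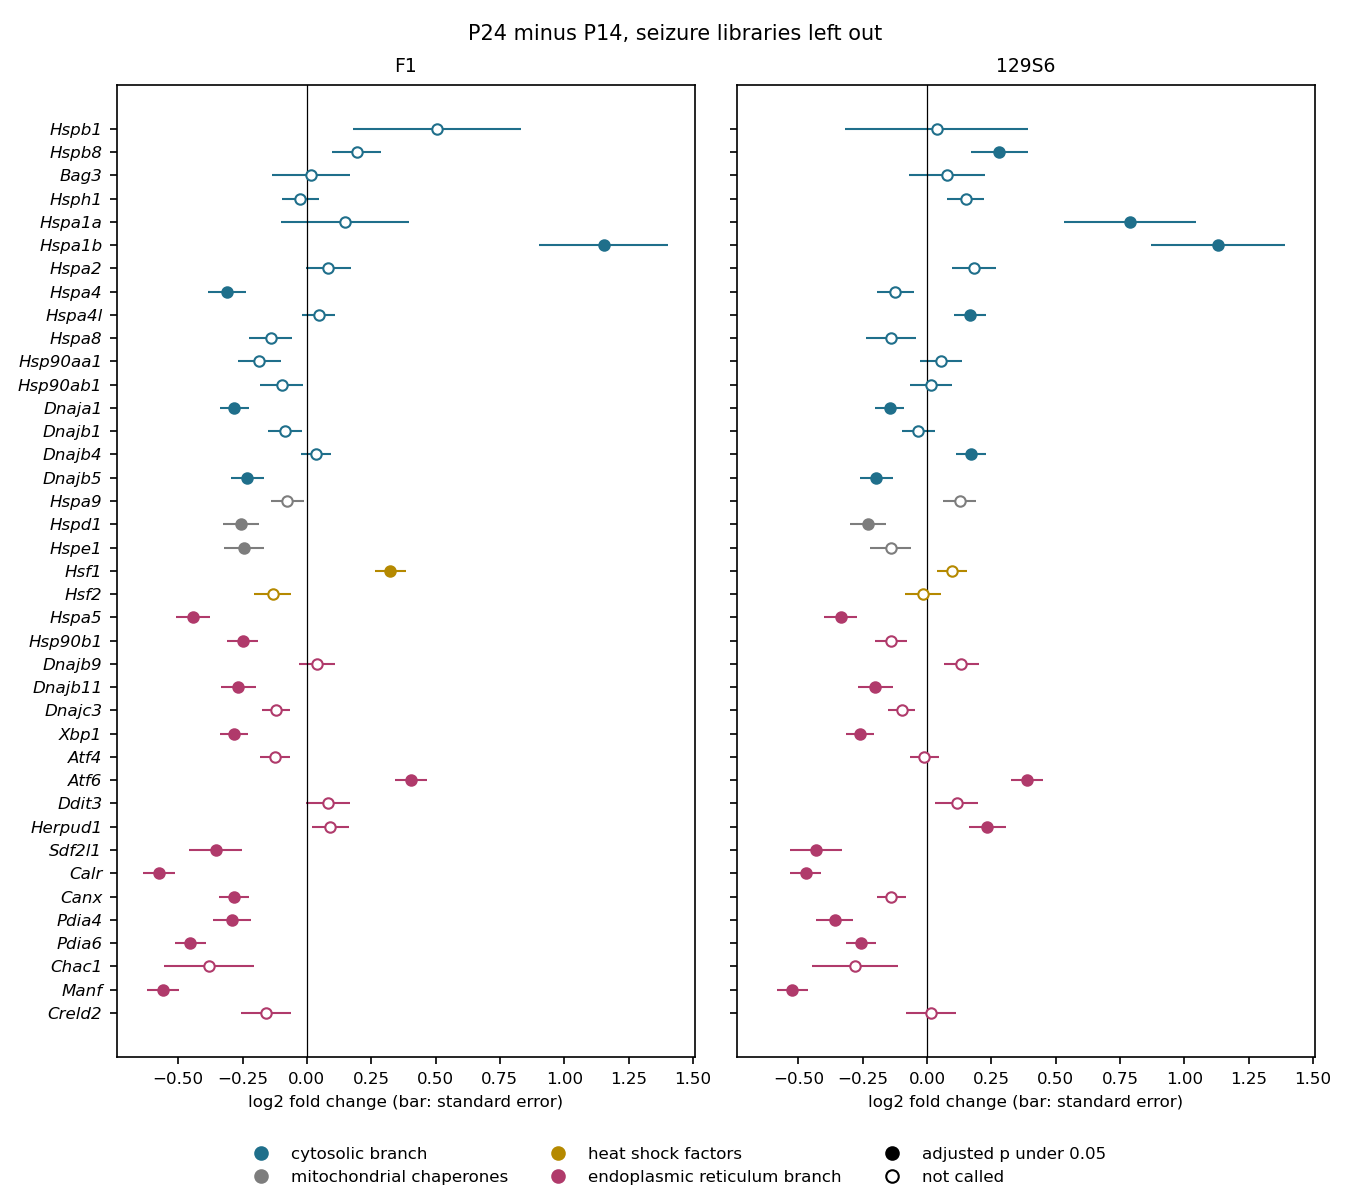
Log2 fold change from P14 to P24 of the 39 members in F1 (left) and 129S6 (right), seizure libraries left out, with bars for the standard error and filled points for an adjusted p under 0.05. Calr, Manf and Hspa5 lie left of 0 in both panels, and Atf6 and Hspa1b right of 0.

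The ER chaperones Calr, Manf and Hspa5 were among those that fell in both strains. Calr ran from 294 to 330 CPM (median 312) in the 6 P14 F1 libraries and from 187 to 230 CPM (median 212) in the 5 seizure-free P24 ones, and from 305 to 341 CPM (median 314) to 224 to 232 CPM (median 229) in 129S6. The ages did not overlap in either strain, and the log2 change was -0.58 ± 0.06 in F1 (edgeR adjusted p = 4.64e-09) and -0.47 ± 0.06 in 129S6 (edgeR adjusted p = 1.76e-07). Manf changed by -0.56 ± 0.06 (edgeR adjusted p = 1.25e-08) and -0.52 ± 0.06 (edgeR adjusted p = 3.1e-08), from 63.1 to 42.6 CPM and from 70.5 to 49.5 CPM. Hspa5 went from 224 to 254 CPM (median 245) at P14 to 150 to 200 CPM (median 190) at P24 in F1, and from 237 to 273 CPM (median 256) to 189 to 212 CPM (median 207) in 129S6. Its change was -0.44 ± 0.07 (edgeR adjusted p = 1.83e-06) and -0.34 ± 0.06 (edgeR adjusted p = 9.96e-05), again without overlap.

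The disulphide isomerases Pdia6 (-0.45 ± 0.06 and -0.26 ± 0.06) and Pdia4 (-0.29 ± 0.07 and -0.36 ± 0.07), the factor Xbp1 (-0.28 ± 0.06 and -0.26 ± 0.05), Sdf2l1 (-0.35 ± 0.10 and -0.43 ± 0.10) and the ER J protein Dnajb11 (-0.27 ± 0.07 and -0.20 ± 0.07) also fell in both strains. The Dnajb11 call in 129S6 was lost without labelled wild-type replicate 2 at P24 (-0.18) or wild-type replicate 2 at P14 (-0.17). In F1 Canx (-0.28 ± 0.06) and Hsp90b1 (-0.25 ± 0.06) fell too, the latter not without seizure-free replicate 2 (-0.16). Atf6 went the other way, from 81.7 ± 5.65 CPM (SD, n = 6) to 109 ± 8.66 CPM (n = 5) in F1 and from 86.6 ± 3.84 (n = 5) to 113 ± 4.20 CPM (n = 6) in 129S6, with no overlap. Its log2 change was 0.40 ± 0.06 (edgeR adjusted p = 3.83e-06) and 0.39 ± 0.06 (edgeR adjusted p = 8.58e-06). Herpud1 rose in 129S6 (0.23 ± 0.07, edgeR adjusted p = 0.0109), not without P14 wild-type replicate 2 (0.21). The seizure libraries, with 93.5 to 103 CPM of Xbp1, lay above all P14 F1 libraries (82.5 to 92.0 CPM), and with 209 to 269 CPM of Hspa5 they overlapped with the P14 F1 range.

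In the cytosolic branch, Hspa1b rose by 1.15 ± 0.25 (edgeR adjusted p = 0.000422) and 1.13 ± 0.26 (edgeR adjusted p = 0.000931) on the log2 scale, from medians of 1.08 and 1.32 CPM at P14 to 2.86 and 2.51 CPM at P24. Hspa1a, whose reads it partly shares, rose in 129S6 (0.79 ± 0.26, edgeR adjusted p = 0.0158), not without P14 wild-type replicate 1 (0.68), and in F1 had 0.15 ± 0.25. The J proteins Dnaja1 (-0.28 ± 0.06 and -0.14 ± 0.06) and Dnajb5 (-0.23 ± 0.06 and -0.20 ± 0.06) fell in both strains, and in 129S6 both calls depended on single libraries: Dnaja1 was kept in 22 and Dnajb5 in 28 of 30 fits. In F1 Hspa4 fell (-0.31 ± 0.07, edgeR adjusted p = 0.00115) and the master regulator Hsf1 rose (0.32 ± 0.06, edgeR adjusted p = 4.9e-05), with 32.0 to 39.5 CPM at P14 and 41.7 to 47.4 CPM at P24. In 129S6 Dnajb4 (0.17 ± 0.06), Hspa4l (0.17 ± 0.06) and Hspb8 (0.28 ± 0.11) rose, calls kept in 24, 16 and 6 of 30 fits. The number of cytosolic calls in 129S6 fell from 7 to 1 without P14 wild-type replicate 1, to 3 without P14 Scn1a+/- replicate 3, and to 4 without any 1 of 6 other 129S6 libraries. Mitochondrial Hspd1 fell in both strains (-0.26 ± 0.07 and -0.23 ± 0.07), in F1 not without seizure-free replicate 2 (-0.16), and Hspe1 in F1 (-0.24 ± 0.08), not without seizure-free replicate 1 (-0.22).

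None of these age changes was shown to differ between the strains. The interaction test called 0 of 39 members, against 0.00628% of all genes higher and 0% lower, and DESeq2 called 0. The smallest p belonged to Hsf1 (0.23 ± 0.08), Pdia6 (-0.20 ± 0.08), Hspa9 (-0.20 ± 0.09) and Hsp90aa1 (-0.24 ± 0.12), with edgeR adjusted p from 0.532 to 0.612. Next by p in their branches were Hspa4 (-0.19 ± 0.10) and Canx (-0.14 ± 0.08). Cell type markers moved with age too. The 5 oligodendrocyte markers rose in both strains, from summed levels of 5040 to 7168 CPM in all P14 libraries to 11160 to 14136 CPM in the seizure-free P24 libraries, mural markers went from 138 to 170 CPM to 90.5 to 113 CPM, and astrocyte markers from 7993 to 8710 CPM to 6307 to 7368 CPM. Leptomeningeal markers went from 161 to 194 CPM to 112 to 141 CPM in F1 and from 250 to 298 CPM to 157 to 189 CPM in 129S6. Their part in the fall of the ER chaperones was not tested.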

How the data were processed

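The authors deposited raw counts per gene symbol, 1 file per library, whole numbers for 24421 symbols. Per the submitters' processing notes, CASAVA, TopHat2 2.1.0, HTSeq 0.6.1p1 and the build mm10 were used. The sources used here give neither annotation nor strand setting. Per the labels' protocols the library kit was the TruSeq RNA Library Preparation Kit v2. The stretches that Manf shares with the gene model of Rbm15b run in the same direction, so strand would not tell those reads apart. A deposited table of normalized values was not used.

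Groups follow titles and characteristics. All 25 libraries were fitted in 1 quasi-likelihood model of 9 groups in edgeR 4.0.16 (limma 3.58.1, R 4.3.3) with TMM and filterByExpr (minimum count 10), which left 15912 genes, a biological coefficient of variation of 7.57% and 16 residual degrees of freedom. Benjamini-Hochberg adjustment ran over all genes tested. For strain and age, the seizure-free groups of both genotypes were averaged. CPM uses TMM library sizes, branch means use log2 CPM with a prior count of 2, and the standard error is the fold change over the root of the F statistic. Exon lengths and shared 50-base stretches came from GENCODE vM39, not the annotation counted. The fit was checked on simulated counts. Alternatives were DESeq2 1.42.0, other scalings, no filter, only the groups compared, no seizure libraries, and each library left out.

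The members and gene lists were chosen with earlier results of these data known. Named with full values were up to 20 called members in the seizure comparisons and 12 elsewhere, and otherwise the 2 of smallest p in each branch. Per-library values were given for the 10 called members of smallest adjusted p and for Hspa5, Xbp1, Atf4 and Ddit3. Library values shown for Hspa1a, Hspa8 and Dnajb1 were chosen after their values were seen.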

Additional observations from a re-analysis of the deposited data

How the results depend on the processing

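Counts of called members stayed within 1.5 times of the reported count in 549 of 570 recomputed values. That total includes the genotype and interaction counts, which were 0 in the main fit, and fits that left out a library of a group not compared. It is therefore a weak measure of stability. Fitting only the groups compared gave 7 members against seizure-free mice (3 ER) and 9 against wild type (4 ER). The P24 strain count of 4 became 9 with no filter and 12 without the seizure libraries, and the cytosolic age count in 129S6 became 4 with total counts alone. Leaving out 1 library at a time gave these ranges, shown without the share of all genes called in each fit. Seizure against seizure-free mice gave 9 to 21 members (cytosolic 4 to 9, ER 5 to 12) and seizure against wild type 12 to 16 (5 to 9 and 5 to 9). The strain comparisons gave 2 to 3 at P14 and 3 to 10 at P24. Age gave 16 to 20 in F1 (4 to 5 and 10 to 12) and 12 to 24 in 129S6 (1 to 10 and 8 to 12), and genotype and interaction gave 0 throughout. The change of sign was that of Dnajb4 in the P14 129S6 genotype comparison, -0.10 with all libraries, -0.24 to 0.039 with 1 library left out and positive without wild-type replicate 2; the cause was not tested. No paired analysis was possible because the number in each title runs over the whole series and pairs no libraries. Low counts limit Hspb1, Hspa1a, Hspa1b and Trib3, and 2 groups hold 2 libraries.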

Other observations

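Among the further pathway genes, Cryab, the small heat shock protein alpha B-crystallin that mature oligodendrocytes and astrocytes make, rose with age by 0.92 ± 0.07 on the log2 scale in F1, from 32.8 to 62.1 CPM, and by 0.86 ± 0.07 in 129S6, from 23.6 to 43.1 CPM, by edgeR's test. It was also higher in F1 than in 129S6, by 0.46 ± 0.08 at P14 and 0.52 ± 0.07 at P24. Hsf4, a heat shock factor best known from the lens, rose with age by 1.10 ± 0.20 and 0.93 ± 0.20. Hspb6 fell with age by 0.44 (SE 0.15) in F1 and by 0.59 (SE 0.15) in 129S6. Of the 39 further cytosolic genes, 6 rose and 19 fell with age in F1, where 19% of all genes rose and 19.4% fell, and 6 rose and 8 fell in 129S6, near the 17.3% and 17.1% of all genes. The chaperonin subunit Cct6a fell in both strains, by 0.48 (SE 0.05) and 0.17 (SE 0.05).

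Of the 35 further ER genes, 5 rose and 8 fell with age in F1, and 2 rose and 7 fell in 129S6, where the shares that fell were near those of all genes. The disulphide isomerase Pdia3 (-0.47 ± 0.07 and -0.26 ± 0.07) and the translocon subunit Sec61b (-0.51 ± 0.10 and -0.33 ± 0.10) fell in both.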
